A study of Homo sapiens with 8 samples.

Results

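The mitochondrial ribosomal protein genes are the nuclear genes whose symbols start with MRPL or MRPS and a digit, and they were followed through an RNA-seq study of human myeloma cells that overexpress CTBP2. Of the 25906 gene rows measured, 80 carried such a symbol. Of these, 76 were kept as members: 3 rows are pseudogenes (MRPS31P5, MRPL45P2 and MRPL42P5) and the antisense RNA MRPL23-AS1 did not reach 1 FPKM (fragments per kilobase of transcript, scaled to sequencing depth) in at least 2 libraries. The threshold divided the rows widely: the lowest value of any member in any library was 3.68 FPKM, in MRPL19, and the highest of MRPL23-AS1 was 0.187 FPKM. By their current protein names 49 members encode large subunit proteins, 26 encode small subunit proteins, and MRPS36 encodes a protein now assigned to the alpha-ketoglutarate dehydrogenase complex. MRPS18A and MRPS30 carry a small subunit symbol but belong to the large subunit and were counted there. Of the 75 subunit genes, 46 have a bacterial counterpart and 29 are specific to mitochondria.

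The cells were MM.1S and NCI-H929, which are established human plasma cell myeloma lines, MM.1S with high MAF and CCND2 and NCI-H929 with high FGFR3 and WHSC1. Each line was transduced by lentivirus with a CTBP2 overexpression vector or with empty vector (EV) and taken 72 hours later, as biological duplicates, which gives 8 libraries in 4 groups of 2. CTBP2 is a transcriptional corepressor; EV cells were also transduced, and every library is a bulk culture of 1 line, in which fewer cells of a kind and less RNA per cell cannot be told apart.

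Mitochondria translate their own small set of messenger RNAs, all for membrane-bound parts of the respiratory chain and ATP synthase, on a dedicated ribosome. Its ribosomal RNAs are made in the mitochondrion, while each of its proteins is encoded in the nucleus, made in the cytoplasm and imported. The proteins shared with bacteria lie mostly around the decoding and peptidyl transferase centres and the stalks, and the mitochondria-specific ones add to the outer shell, the membrane side and the messenger RNA entry.

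The targeted gene separated the vectors in every library: CTBP2 had 5884 and 3427 FPKM in the CTBP2 libraries that read as NCI-H929, 2145 and 1621 FPKM in those that read as MM.1S, and 0.148 to 0.213 FPKM in the 4 EV libraries. The line did not match the label in 2 libraries. The library labelled as CTBP2 replicate 2 of MM.1S had 0.0582 FPKM of CCND2 and 22.2 FPKM of FGFR3, the pattern of NCI-H929, and the library labelled as CTBP2 replicate 2 of NCI-H929 had 60.7 FPKM of CCND2 and 0.0399 FPKM of FGFR3, the pattern of MM.1S. The other 3 libraries of each label had 46.7 to 115 FPKM of CCND2 for MM.1S and 13.6 to 21.7 FPKM of FGFR3 for NCI-H929. Groups below carry the line read from these genes, and where 2 CTBP2 values are given for a line, the second is from the library labelled with the other line. Values are given by library for single members, and counts, medians and separations for CTBP2 over EV are also given with the labels as written and in the 6 libraries that match their labels. The plasma cell markers SDC1, TNFRSF17, CD38, XBP1, IRF4, PRDM1 and MZB1 had 12.6 FPKM or more in all 8 libraries. MS4A1, PAX5, CD14, LYZ, CSF1R, COL1A1, COL1A2 and DCN stayed at 0.552 FPKM or less. Of the T cell genes CD3D and CD2 stayed at 0.955 FPKM or less. CD3E had 16.7 and 53.1 FPKM in NCI-H929 CTBP2 libraries, against 2.10 and 3.65 FPKM in EV. In MM.1S it had 4.76 and 2.44 FPKM with CTBP2, against 1.33 and 0.527 FPKM in EV.

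Promoter sequences from RefSeq (GRCh38.p14), each 250 bases before to 50 bases after the annotated start, were found for 68 of the 76 members and searched on both strands for 8 motifs, chosen with the members' values known. The letters AAGATGGC, a form of the YY1 motif, were in 20 of the 68 (29.4%), against 5.65% of the promoters of all genes kept and 3.03% of all promoters in the table. In 15 members these letters lay on the gene's own strand, 6 to 35 bases past the start; of all genes kept, 3.26% had them past the start on that strand. The ETS family letters CCGGAAG were in 28 of the 68 (41.2%), against 19.98% of the genes kept and 10.7% of all promoters. The E-box CACGTG, bound by MYC among others, was in 7 members (10.3%), against 10.6% of the genes kept and 7.43% of all promoters. The NRF1 letters GCATGCG were in 7 members (10.3%), against 6.86% of the genes kept and 4.13% of all, while its full consensus of 10 letters was in 1 (1.47%), against 2.49% and 1.36%. TATAAA was in 3 (4.41%), against 5.70% and 11.95%. CCAAT was in 20 (29.4%), against 37.4% and 35.7%, and GGGCGG in 42 (61.8%), against 69.5% and 44.6%. AAGATGGC can share its first 3 letters with the end of CCGGAAG and at most 2 end letters with the other motifs; it also holds an ATG, so a match can fall on a start codon. A match is a description of letters and shows no bound factor.

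The 8 stretches that follow, each 60 bases before to 30 bases after the start and written 5′ to 3′ on the gene's strand, belong to MRPS26 and MRPS12, which had the lowest log2 fold changes of the small subunit genes, and to the 6 members with AAGATGGC past the start that had the smallest p for the vector. Capitals mark AAGATGGC, CCGGAAG or their reverse complements.
MRPS26, chr20:3045992-3046081, plus strand: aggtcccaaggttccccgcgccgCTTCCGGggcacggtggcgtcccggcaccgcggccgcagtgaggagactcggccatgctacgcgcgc
MRPS12, chr19:38930884-38930973, plus strand: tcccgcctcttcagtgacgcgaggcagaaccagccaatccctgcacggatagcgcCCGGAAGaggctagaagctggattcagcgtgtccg
MRPL42, chr12:93467454-93467543, plus strand: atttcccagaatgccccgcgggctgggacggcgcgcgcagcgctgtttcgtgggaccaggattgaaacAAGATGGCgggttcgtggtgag
MRPS30, chr5:44808887-44808976, plus strand: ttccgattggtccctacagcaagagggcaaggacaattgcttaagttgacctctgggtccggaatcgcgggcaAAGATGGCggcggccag
MRPL46, chr15:88467359-88467448, minus strand: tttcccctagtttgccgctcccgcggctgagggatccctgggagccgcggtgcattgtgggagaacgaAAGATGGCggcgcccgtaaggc
MRPL51, chr12:6493233-6493322, minus strand: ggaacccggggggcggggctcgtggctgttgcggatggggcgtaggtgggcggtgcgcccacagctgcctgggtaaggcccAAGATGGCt
MRPL38, chr17:75904855-75904944, minus strand: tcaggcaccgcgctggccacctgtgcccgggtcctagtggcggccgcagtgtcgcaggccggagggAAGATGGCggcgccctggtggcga
MRPS7, chr17:75261819-75261908, plus strand: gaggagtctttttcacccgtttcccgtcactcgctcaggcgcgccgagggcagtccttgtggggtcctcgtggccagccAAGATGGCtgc
In these stretches the YY1 letters begin 6 bases past the start in MRPL38, 8 in MRPL42 and MRPL46, 13 in MRPS30, 19 in MRPS7 and 21 in MRPL51. The ETS letters begin 5 bases before the start in MRPS12 and 37 before it, on the opposite strand, in MRPS26.

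All members were transcribed at substantial levels in EV cells, with a median of their mean levels of 48.5 FPKM. The highest were MRPS34 (210.8 FPKM, mean of the 4 EV libraries), MRPS24 (202 FPKM), MRPL12 (180.1 FPKM), MRPL36 (160.4 FPKM) and MRPL41 (155 FPKM). The lowest were MRPL42 (16.5 FPKM), MRPL22 (12.2 FPKM), MRPS31 (11.3 FPKM), MRPL30 (9.28 FPKM) and MRPL19 (6.51 FPKM). Neighbours in this order, such as MRPS34 and MRPS24, had overlapping libraries.

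With CTBP2, most genes of the mitochondrial ribosome were lower. Over both lines, with line in the model, 49 of 76 members passed the test as lower (limma on log2(FPKM + 1), Benjamini-Hochberg adjusted p under 0.05 over all genes tested) and 0 as higher. The background was 16.7% of all genes tested called lower and 17.4% called higher. The log2 fold change was below 0 for 75 of 76 members, with MRPS14 the exception at 0.003, and its median was -0.55, against 0.035 over all genes tested. All 4 CTBP2 libraries lay below all 4 EV libraries in 16 members, where 7.45% of all genes did so. Large and small subunit genes had like medians of -0.56 and -0.49, with 32 of 49 and 17 of 26 called lower. Among the small subunit genes all 10 mitochondria-specific members were called lower, and 7 of 16 with a bacterial counterpart; among the large subunit genes these counts were 10 of 19 and 22 of 30. In the 6 libraries that match their labels 5 of the 10 and 7 of the 16 small subunit genes were called lower, and 7 of 19 and 16 of 30 large subunit genes. The CTBP2 libraries left there, a lone one per line, lay below all EV libraries in 30 members (12.6% of all genes). With the labels as written 0 of 10, 1 of 16, 0 of 19 and 2 of 30 were called.

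**Figure D1:**
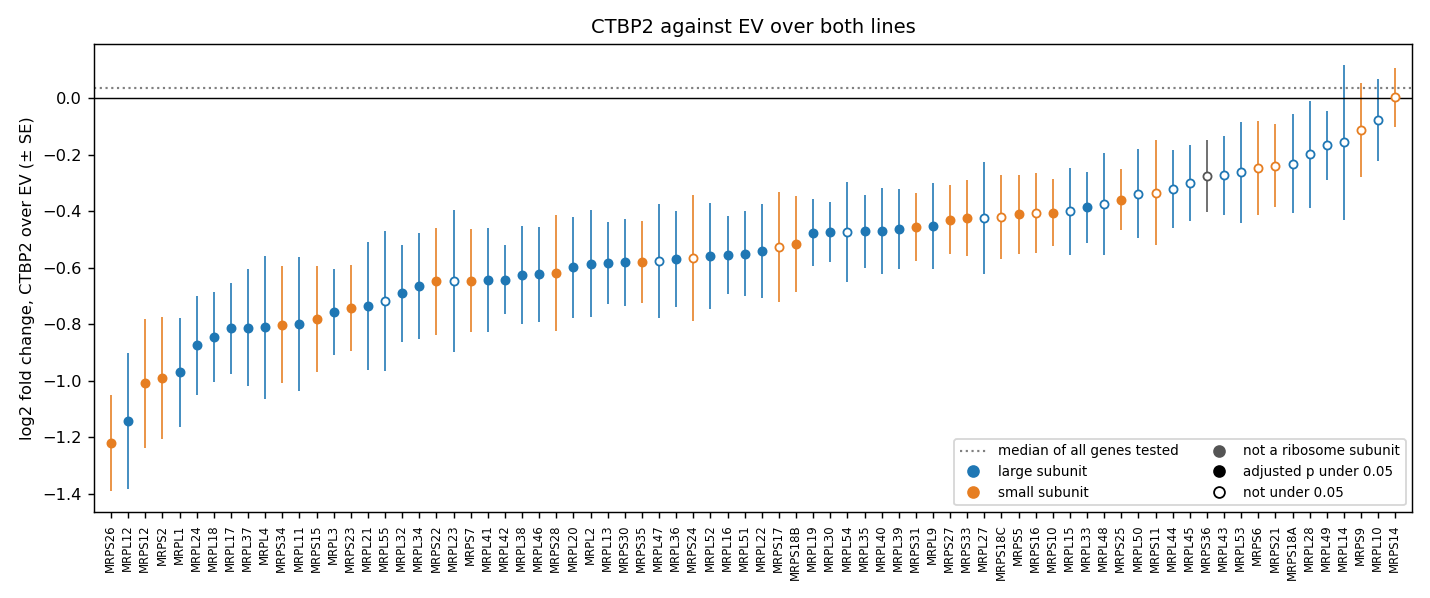
Each point is 1 of the 76 genes, ordered along the x axis by log2 fold change of CTBP2 over EV over both lines (y axis, log2(FPKM + 1) scale, bar ± SE), in colour by subunit and filled where the adjusted p was under 0.05. The 49 filled points are all below 0, and the dotted line marks the median of all genes, 0.035.

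The summed level of the members is given per library, where the total over all genes was also lower with CTBP2. Totals were 459733 to 544210 FPKM in the CTBP2 libraries and 547097 to 659837 FPKM in the EV libraries. Small RNA genes took 5.02% to 21.2% of the totals, and their part in the members' shares was not tested. The summed level of the members was 3449 and 2585 FPKM in the NCI-H929 CTBP2 libraries, against 5586 and 4563 FPKM in the NCI-H929 EV libraries. It was 3014 and 3883 FPKM in the MM.1S CTBP2 libraries, against 3953 and 5151 FPKM in the MM.1S EV libraries. The groups did not overlap in either line, with a narrow gap in MM.1S. As a share of all FPKM, the members took 0.634% and 0.562% in NCI-H929 CTBP2 libraries, against 0.859% and 0.692% in EV, and the groups did not overlap. In MM.1S the shares were 0.606% and 0.751% with CTBP2, against 0.723% and 0.835% in EV, and they overlapped. With the labels as written the sums were still apart in both lines, and the shares overlapped in NCI-H929 and were apart in MM.1S. In the 6 libraries that match their labels, with a lone CTBP2 library per line, sums and shares were apart in both lines. The members also moved together between libraries of 1 group: 71 of 76 were higher in MM.1S EV replicate 2 than in replicate 1, with a median difference of 0.32 on the log2 scale, and 73 of 76 were higher in the library labelled as CTBP2 replicate 2 of NCI-H929 than in MM.1S CTBP2 replicate 1, by 0.33. The 76 values of a library are therefore not independent.

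**Figure D2:**
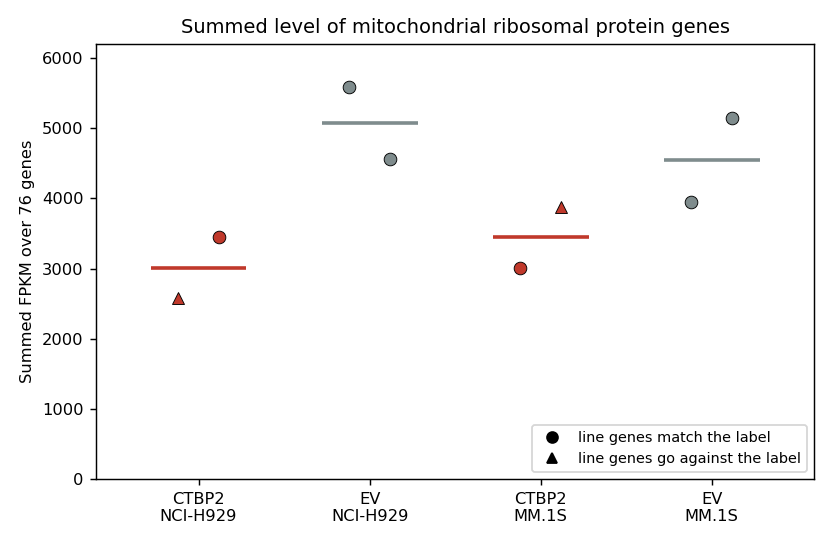
Summed FPKM of the 76 genes (y axis) in each library, by line read from expression and vector (x axis); bars are means of the 2 libraries and triangles mark libraries whose line genes go against their label. The NCI-H929 CTBP2 libraries lie at 3449 and 2585 FPKM, below both EV libraries of that line.

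The call counts rest on few libraries. With the line labels as written 3 members were called lower over both lines (background 1.81%), namely MRPL3, MRPS12 and MRPL17, with the same median of -0.55, and in the 6 libraries that match their labels 35 were (background 13.7%), with a median of -0.53. Leaving out 1 library gave 13 lower without NCI-H929 EV replicate 1, where 1216 of 12534 genes tested were lower. It gave 16 without MM.1S CTBP2 replicate 1 (1169 of 12414 genes) and 18 without MM.1S EV replicate 2 (1368 of 12545). It gave 20 without NCI-H929 EV replicate 2 (1457 of 12527) and 26 without the library labelled as CTBP2 replicate 2 of MM.1S (1662 of 12264). Without one of the others it gave 41 to 57 (1965 to 2212 genes). The median stayed between -0.64 and -0.44 in all 8 of these fits, with 0 members called higher. With libraries set to equal totals without immunoglobulin genes and CTBP2, 13 members were lower, 64 of 76 below 0, and the median was -0.26; this scaling moved the median of all genes to 0.27, and the members' median minus that of all genes was -0.53, against -0.58 in the fit as deposited. With quantile normalization 68 of 76 were below 0, the median was -0.35 and its distance from that of all genes was -0.34. The split of all called genes was 3809 higher and 869 lower with equal totals, and 1731 higher and 1988 lower with quantile normalization. In the fit as deposited it was 2186 higher and 2101 lower.

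In the large subunit, MRPL12, the stalk protein that contacts translation factors and also binds the mitochondrial RNA polymerase, combined high abundance with a large fall. It had 79.6 and 52.1 FPKM in NCI-H929 CTBP2 cells, against 224 and 149 FPKM in NCI-H929 EV cells. It had 80.9 and 119 FPKM in MM.1S CTBP2 cells, against 143 and 203 FPKM in MM.1S EV cells. All 4 CTBP2 libraries were below all 4 EV libraries, with means of 82.9 ± 27.4 and 180.1 ± 40.0 FPKM (SD, n = 4 each) and a log2 fold change of -1.14 (SE 0.24, adjusted p = 0.00938).

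MRPL1, a protein of the other ribosomal stalk, had 7.17 and 7.03 FPKM in NCI-H929 CTBP2 cells, against 23.7 and 17.5 FPKM in NCI-H929 EV cells. In MM.1S it had 9.33 and 10.98 FPKM with CTBP2, against 13.5 and 17.2 FPKM in EV. No library overlapped between vectors, and the log2 fold change was -0.97 (SE 0.19, adjusted p = 0.00784). MRPL3, which reaches toward the peptidyl transferase centre, had 33.6 and 29.04 FPKM in NCI-H929 CTBP2 cells, against 69.9 and 63.4 FPKM in EV, and 34.1 and 41.5 FPKM in MM.1S CTBP2 cells, against 50.6 and 52.7 FPKM in EV. It fell in the combined test by 0.76 on the log2 scale (SE 0.15, adjusted p = 0.00825), again with no overlap.

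MRPL24, an early-binding protein near the exit tunnel in bacteria, had 95.6 and 85.6 FPKM in NCI-H929 CTBP2 cells, against 159 and 177 FPKM in EV, and 45.7 and 66.8 FPKM in MM.1S CTBP2 cells, against 81.1 and 127 FPKM in EV. Its vectors were apart within each line but overlapped across lines, and it fell by 0.88 (SE 0.17). MRPL18, MRPL17 and MRPL42 fell by 0.85, 0.81 and 0.64, each with no overlap. MRPL42 was the most even of them, with 10.1 ± 0.476 FPKM in CTBP2 libraries and 16.5 ± 2.80 FPKM in EV libraries (SD, n = 4 each). MRPL13, MRPL19 and MRPL30, all with bacterial counterparts, fell by 0.58, 0.48 and 0.47. Reads of MRPL42, MRPL45 and MRPS31 could be shared with the pseudogene rows, which had 0.354 to 1.54 FPKM, and those of MRPL23 with MRPL23-AS1, since no source used here says that strand was kept.

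The large subunit genes furthest from 0 without passing the test were MRPL55 (-0.72, adjusted p = 0.0503), MRPL23 (-0.65, adjusted p = 0.0724) and MRPL47 (-0.58, adjusted p = 0.0515). MRPL44, a protein with an RNase III-like fold in which mutations cause cardiomyopathy, had 20.9 and 20.03 FPKM in NCI-H929 CTBP2 cells, against 32.0 and 25.7 FPKM in EV, and 17.4 and 22.2 FPKM in MM.1S CTBP2 cells, against 19.97 and 25.1 FPKM in EV. The MM.1S values overlapped, and the combined log2 fold change of -0.32 did not pass (SE 0.14, adjusted p = 0.0956).

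In the small subunit, MRPS26, a mitochondria-specific protein, had the largest fall of any member. It had 13.3 and 8.89 FPKM in NCI-H929 CTBP2 cells, against 32.0 and 25.8 FPKM in NCI-H929 EV cells. It had 16.1 and 23.5 FPKM in MM.1S CTBP2 cells, against 40.1 and 47.2 FPKM in MM.1S EV cells. No library overlapped between vectors, and means were 15.5 ± 6.14 FPKM with CTBP2 and 36.3 ± 9.35 FPKM in EV (SD, n = 4 each), a log2 fold change of -1.22 (SE 0.17, adjusted p = 0.00323).

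MRPS12, the decoding-centre protein whose bacterial counterpart is the target of streptomycin resistance mutations, had 49.7 and 39.3 FPKM in NCI-H929 CTBP2 cells, against 134 and 101 FPKM in EV. In MM.1S it had 41.7 and 67.0 FPKM with CTBP2, against 68.7 and 101 FPKM in EV. The MM.1S groups came within 2 FPKM of each other, and the combined log2 fold change was -1.01 (SE 0.23, adjusted p = 0.0114). MRPS2 and MRPS15, both with bacterial counterparts, and the mitochondria-specific MRPS23 fell by 0.99, 0.78 and 0.74.

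Genes of the small subunit in which mutations cause combined respiratory chain deficiency did not all pass. MRPS34, the member with the highest EV level, had 133 and 80.9 FPKM in NCI-H929 CTBP2 cells, against 235 and 176 FPKM in EV, and 119 and 156 FPKM in MM.1S CTBP2 cells, against 180.4 and 252 FPKM in EV; it fell by 0.80 (SE 0.21, adjusted p = 0.0185). MRPS22 had 31.3 and 20.5 FPKM in NCI-H929 CTBP2 cells, against 52.6 and 47.2 FPKM in EV, and 15.04 and 21.9 FPKM in MM.1S CTBP2 cells, against 22.7 and 24.1 FPKM in EV; it fell by 0.65 (SE 0.19, adjusted p = 0.0275). MRPS16 had 28.97 and 26.3 FPKM in NCI-H929 CTBP2 cells, against 47.8 and 38.6 FPKM in EV, and 31.8 and 40.3 FPKM in MM.1S CTBP2 cells, against 39.0 and 43.5 FPKM in EV, and its log2 fold change of -0.41 did not pass (SE 0.14, adjusted p = 0.0519). MRPS16 overlapped between vectors in MM.1S, while the other pair did not overlap within either line. MRPS24 (-0.57, adjusted p = 0.0748) and MRPS17 (-0.53, adjusted p = 0.0614) were the other small subunit genes furthest from 0 without passing. MRPS36, the gene that is no ribosome subunit, had a log2 fold change of -0.28 (adjusted p = 0.115).

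**Figure D3:**
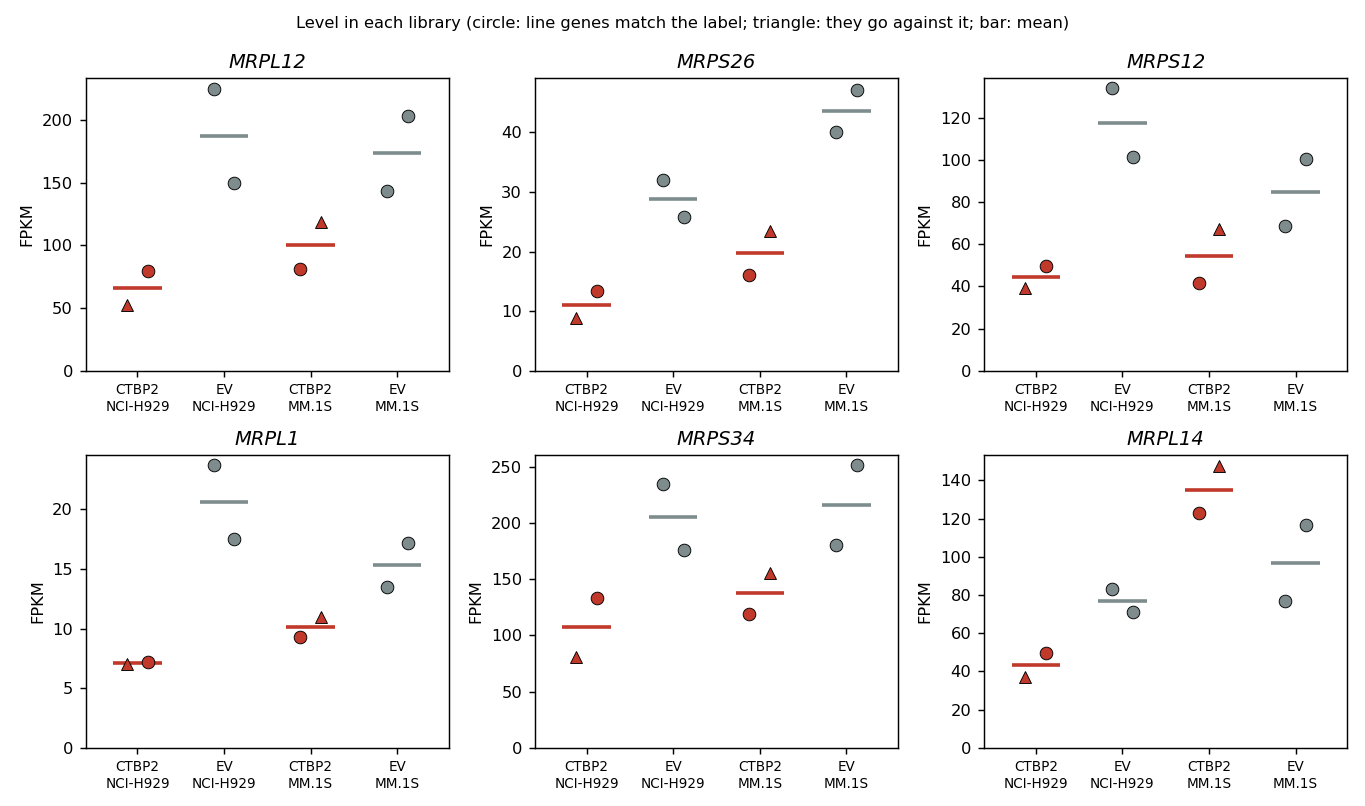
FPKM (y axis of each panel, from 0) of 6 genes in each library, by line read from expression and vector; bars are means of 2 libraries and triangles are libraries whose line genes go against their label. CTBP2 libraries lie below the EV libraries of their line in 5 panels, and MRPL14 is the exception, with 123 and 148 FPKM in MM.1S CTBP2 cells, against 76.8 and 116 FPKM in MM.1S EV cells.

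Transcript length and level moved with the effect over all genes, and most members are short and highly expressed. Lengths from GENCODE release 29 were found for all 76 members and 96.6% of the genes kept, and the median was 1430 bases for members and 3021 bases for the genes kept. From the shortest to the longest of 4 equal bins of all genes, the median log2 fold change was -0.11, -0.02, 0.06 and 0.15; the 59 members in the shortest bin had a median of -0.58. From the lowest to the highest of 4 bins by level it was 0.26, 0.13, -0.05 and -0.27 over all genes, and the 65 members in the highest bin had a median of -0.56. The part of length and level in the members' fall was not tested. The members' medians in the 4 length bins were -0.58, -0.41, -0.42 and -0.69, over 59, 8, 7 and 2 genes.

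Within NCI-H929 all 76 members had a negative log2 fold change, with a median of -0.67, and 44 were called lower, against 14.6% of all genes. The median over all genes was 0.046, with 46.3% below 0. Both CTBP2 libraries were below both EV libraries in 67 of 76 members, where 31% of all genes were. The count was 48 with the labels as written (23.7% of all genes). In the 6 libraries that match their labels, the lone NCI-H929 CTBP2 library was below both EV libraries in 68 (40.9%), which is easier to meet. By smallest p the leading members were MRPL1 (-1.40, adjusted p = 0.00284), MRPL3 (-1.07, adjusted p = 0.0037), MRPL42 (-0.87), MRPL18 (-1.12), MRPS17 (-0.99), MRPL32 (-1.03) and MRPS26 (-1.32). MRPL17, MRPS35, MRPS12, MRPL19, MRPL12, MRPS23, MRPS30 and MRPL34 followed, between -1.49 for MRPL12 and -0.67 for MRPL19. MRPS17, a ribosomal RNA-binding protein of the small subunit, had 18.5 and 20.3 FPKM with CTBP2, against 42.03 and 37.4 FPKM in EV. The members furthest from 0 without passing were MRPL11 (-0.92), MRPL37 (-0.89), MRPL2 (-0.72), MRPL23 (-0.72) and MRPL55 (-0.67). The count was 4 without EV replicate 1, 27 without EV replicate 2, 15 without the library labelled as CTBP2 replicate 2 of MM.1S, 14 in the 6 libraries that match their labels (background 7.41%), with a median of -0.60, and 0 with the labels as written (background 0.00795%), with a median of -0.50.

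Within MM.1S 1 member passed the test. MRPS26 fell by 1.12 on the log2 scale (SE 0.24, adjusted p = 0.0404), where 1.8% of all genes were called lower. By limma 14 members, all lower, had an unadjusted p under 0.05. Of 12583 genes tested, 1655 were lower and 1736 higher at that threshold. Over all genes the median was 0 and 49.8% were below 0. The median over the members was -0.35, with 73 of 76 below 0. The median was -0.56 with the labels as written, -0.53 in the 6 libraries that match their labels and also without the library labelled as CTBP2 replicate 2 of NCI-H929, and -0.49 without EV replicate 1. It was -0.19 without CTBP2 replicate 1 and -0.18 without EV replicate 2. It was -0.17 with equal totals without immunoglobulin genes and CTBP2, -0.18 with small RNA genes also left out, and -0.16 with quantile normalization. These scalings moved the median of all genes to 0.14, 0.13 and -0.0066. The members' median minus that of all genes was -0.31, -0.31 and -0.15, against -0.35 in the fit as deposited. Both CTBP2 libraries were below both EV libraries in 43 members, against 31.3% of all genes, and above them in 3 (31.6% of all genes). With the labels as written 61 were below (30% of all genes) and 0 above (26.3%). In the 6 libraries that match their labels, the lone MM.1S CTBP2 library was below both EV libraries in 71 members (42.4%) and above them in 3 (41.4%). The members furthest from 0 without passing were MRPL24 (-0.86, adjusted p = 0.0833), MRPS2 (-0.83, adjusted p = 0.139), MRPL12 (-0.79, adjusted p = 0.154), MRPL55 (-0.76) and MRPL37 (-0.73). In the 6 libraries that match their labels, where the lone MM.1S CTBP2 library is assumed to vary like the others, 5 were lower (MRPS26, MRPS2, MRPL24, MRPL37 and MRPS23; background 6.63%); with the labels as written 0 were (background 0.0159%), and leaving out any of MM.1S CTBP2 replicate 1, either MM.1S EV replicate, either NCI-H929 EV replicate or the library labelled as CTBP2 replicate 2 of NCI-H929 also left 0.

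The effect in NCI-H929 was the more negative in 72 of 76 members, with a median difference of -0.31 on the log2 scale. Over all genes tested it was the more negative in 6066 of 12583, with a median difference of 0.017. No member passed the test of the difference itself. By limma 0 of 76 were called, and of all genes 0.334% were called with a more negative and 0.922% with a more positive effect in NCI-H929. At an unadjusted p under 0.05 were 10 members, all more negative in NCI-H929. Of 12583 genes tested, 757 were more negative and 1180 more positive at that threshold. MRPL14, which lies at the subunit interface, differed most, with a log2 fold change of -0.82 in NCI-H929 and 0.50 in MM.1S, a difference of -1.32 (SE 0.34, adjusted p = 0.118). The others furthest from 0 were MRPS17 (-0.93, adjusted p = 0.119), MRPL1 (-0.86), MRPL4 (-0.79) and MRPS28 (-0.78). The difference for MRPL12 was -0.70, for MRPS12 -0.73, for MRPL3 -0.62, for MRPS22 -0.60, for MRPS16 -0.42, for MRPS34 -0.32 and for MRPL44 -0.29. With the labels as written the median difference was 0.083 and in the 6 libraries that match their labels it was -0.079, so the size of the difference between lines rests on the 2 libraries that go against their labels. Across the 76 members the effects in the 2 lines had a Pearson r of 0.54, against 0.64 across all genes tested, as a description over genes that share libraries. CTBP2 itself was at 4656 ± 1738 FPKM in NCI-H929 CTBP2 cells and 1883 ± 371 FPKM in MM.1S CTBP2 cells (SD, n = 2 each), and its part in the difference was not tested.

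**Figure D4:**
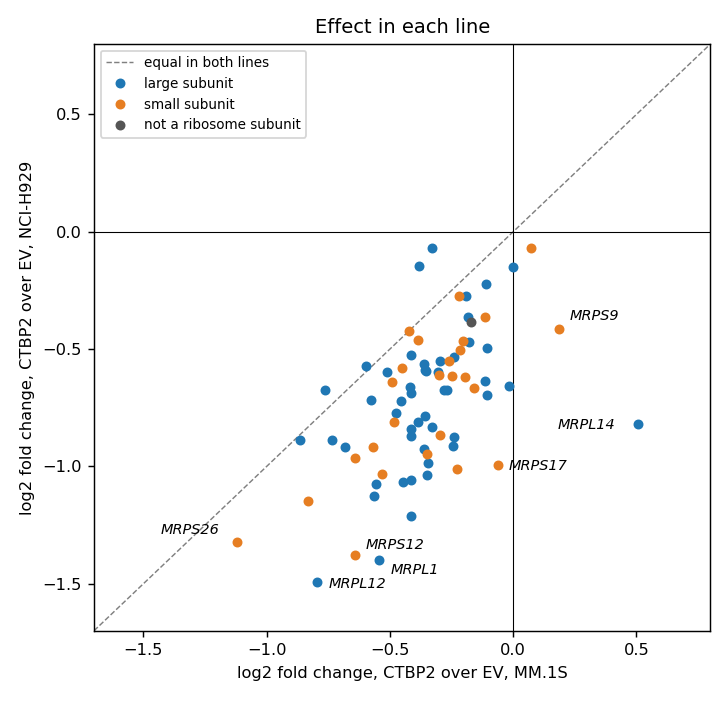
Log2 fold change of CTBP2 over EV in NCI-H929 (y axis) and in MM.1S (x axis) for each of the 76 genes, coloured by subunit; the dashed line marks equal effects. All points lie below 0 on the y axis, 73 lie left of 0 on the x axis and 72 lie below the dashed line; MRPL14 is at 0.50 in MM.1S and -0.82 in NCI-H929.

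Without CTBP2, single members differed between the lines in both directions. Between the EV libraries, NCI-H929 was higher than MM.1S in 18 members, against 22.1% of all genes, and lower in 7, against 28.7%. The median log2 ratio of NCI-H929 over MM.1S was 0.20 over the members and -0.10 over all genes tested, 0.30 apart. With libraries set to equal totals without immunoglobulin genes and CTBP2 the medians were -0.0043 and -0.27, and with small RNA genes also left out -0.11 and -0.36, so the sign of the members' median changed with the scaling while its distance from that of all genes was 0.27 and 0.25. Leaving out 1 library moved that distance to between 0.12, without MM.1S EV replicate 1, and 0.47, without MM.1S EV replicate 2.

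The higher members in NCI-H929 were led by MRPS27, a small subunit protein with pentatricopeptide repeats, which had 87.0 and 73.5 FPKM in NCI-H929 EV cells, against 26.0 and 29.2 FPKM in MM.1S EV cells (log2 ratio 1.505, SE 0.15, adjusted p = 0.0001). MRPS30 of the large subunit had 64.0 and 49.7 FPKM in NCI-H929 EV cells, against 18.8 and 22.9 FPKM in MM.1S EV cells (1.40). MRPL36, MRPS28, MRPS21, MRPS22 and MRPL21 were higher by 1.30, 1.25, 1.23, 1.06 and 1.001. MRPL52, MRPL10, MRPL24, MRPL41, MRPL22, MRPL39, MRPS36, MRPL15, MRPS31, MRPL45 and MRPL42 were higher by 0.39 to 0.90.

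The lower members were led by MRPS33, a mitochondria-specific small subunit protein, which had 51.3 and 48.5 FPKM in NCI-H929 EV cells, against 121 and 159.8 FPKM in MM.1S EV cells (-1.46, SE 0.20). MRPL51 followed with 102 and 88.5 FPKM in NCI-H929 EV cells, against 185 and 237 FPKM in MM.1S EV cells (-1.13). MRPS24, MRPS6, MRPS35, MRPL33 and MRPL30 were lower by 0.41 to 0.93. The members furthest from 0 without passing were MRPL4 (0.83), MRPS2 (0.79), MRPL47 (-0.58), MRPS26 (-0.58) and MRPL9 (0.57). The ratio was 0.10 for MRPL12, which takes either sign across scalings and left-out libraries, and 0.48 for MRPS12.

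Members were also set out by chromosome, with the chromosomes described here singled out after their values were seen. The 5 members on chromosome 5, MRPL22, MRPL36, MRPS27, MRPS30 and MRPS36, were all called higher in NCI-H929, where 22.1% of all genes tested were. Their median log2 ratio was 1.30, against 0.23 over the 565 genes tested on that chromosome. On chromosome 8 MRPL15 and MRPS28 were called higher and MRPL13 was not (0.52, adjusted p = 0.0702); the median of these 3 was 0.63, against 0.26 over 414 genes. All 3 members on chromosome 9, MRPL41, MRPL50 and MRPS2, had ratios above 0, with a median of 0.72, against -0.11 over 517 genes, and so had all 7 on chromosome 17, with a median of 0.25, against -0.12 over 767 genes. On chromosome 12 MRPL51 and MRPS35 were lower and MRPL42 higher, and members had ratios on both sides of 0 on chromosomes 1, 2, 3, 6, 7, 11, 16, 19 and 21 too. For CTBP2 over EV, medians over members were below 0 on all 21 chromosomes that hold one, between -1.22 on chromosome 20, with 1 member, and -0.34 on chromosome 10, with 2. Calls in EV rest on few libraries, and without an EV library a lone one is left in its group. The members' median ratio was 0.014 without MM.1S EV replicate 1 and 0.38 without MM.1S EV replicate 2. It was 0.13 without NCI-H929 EV replicate 1 and 0.35 without NCI-H929 EV replicate 2. With the labels as written 0 members were called higher and 0 lower (background 0.00795% higher and 0.0318% lower). The EV ratios were then the same, since all EV libraries match their labels. The spread shared over 8 libraries then took in the CTBP2 libraries that go against their labels.

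**Figure D5:**
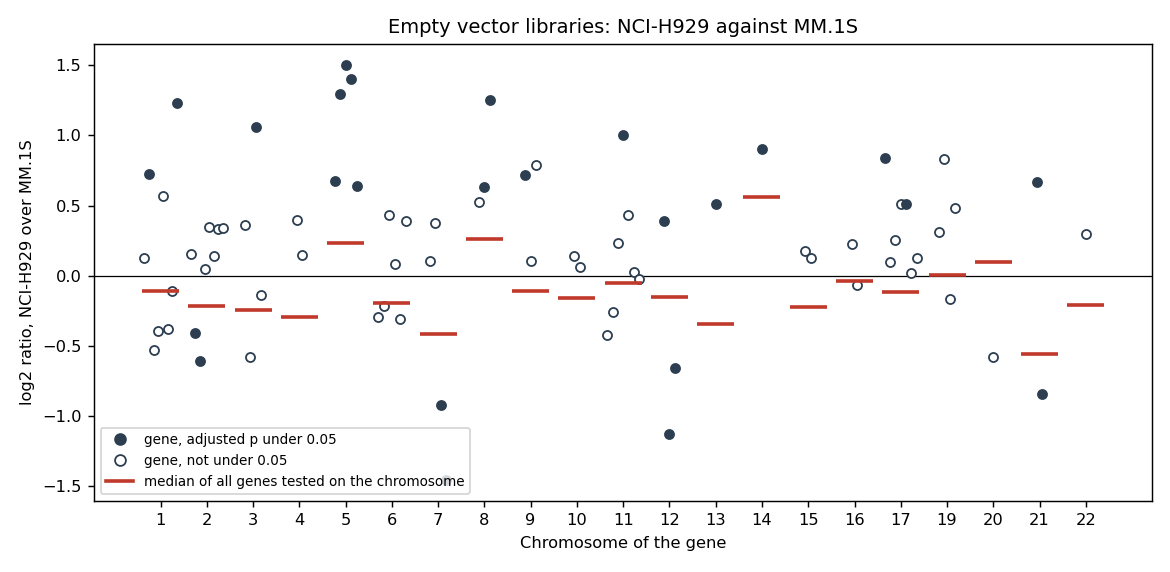
Log2 ratio of NCI-H929 over MM.1S in EV libraries (y axis) for the 76 genes, by the chromosome of the gene (x axis), filled where the adjusted p was under 0.05; red bars are medians of all genes tested on the chromosome. The 5 genes on chromosome 5 lie above 0, with a median of 1.30 against 0.23 for the chromosome.

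Genes that build and serve the same ribosome were also lower with CTBP2 over both lines, where 16.7% of all genes tested were called lower and 17.4% higher. Of 7 subunits that carry other symbols 5 were called lower and 0 higher (median -0.49): PTCD3 (-0.49), ICT1 (-0.59), a ribosome rescue hydrolase of the large subunit, AURKAIP1 (-0.78) and GADD45GIP1 (-0.88) were those with the smallest p, besides CHCHD1. Of 27 assembly factors 14 were lower and 1, YBEY, higher (0.33), with a median of -0.50; MALSU1, which binds the large subunit, fell by 0.77 and MPV17L2 by 1.02, and MTERFD1 and the RNA methyltransferase FTSJ2 by 0.77 and 0.67. Of 16 translation factors 7 were lower and 0 higher (median -0.36). PDF, which removes the formyl group from new chains, fell by 1.13, SLIRP and LRPPRC, which together stabilise mitochondrial messenger RNA, by 1.07 and 0.58, and the elongation factor TSFM by 0.58. Of 17 genes for mitochondrial transcription and RNA processing 10 were lower and 0 higher (median -0.51). Among them C10orf2, a helicase of mitochondrial DNA and not of the ribosome or its RNA, fell by 1.05. TFAM, which packages mitochondrial DNA, fell by 0.55, the nuclease PNPT1 by 0.78 and TFB2M by 0.71. In the 6 libraries that match their labels the counts called lower were 4 of 7 subunits under other symbols, 13 of 27 assembly factors, 5 of 16 translation factors and 10 of 17 transcription and processing genes, with 0 higher and medians of -0.44, -0.48, -0.39 and -0.50; with the labels as written they were 0, 1, 0 and 0.

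Neighbouring systems were lower in median, with few calls. Of 80 cytoplasmic ribosomal protein genes 0 were called by limma, although all 80 had a negative log2 fold change with a median of -0.47. At an unadjusted p under 0.05 by limma 10 of the 80 were lower, against 2878 of 12583 genes tested. Of 75 nuclear genes for subunits of the respiratory chain and ATP synthase, 8 (10.7%) were called lower and 0 higher, with a median of -0.25. Over all genes tested 16.7% were called lower. In the 6 libraries that match their labels 1 of the 80 was called lower, 73 of 80 were below 0 and the median was -0.17, and 7 of the 75 were called lower, with a median of -0.17; with the labels as written the calls were 0 and 1. The difference between these sets and the mitochondrial ribosomal protein genes was not tested.

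Of 11 regulators of mitochondrial genes 2 (18.2%) were called lower and 1 (9.09%) higher, against 16.7% and 17.4% of all genes tested. MYC, which drives ribosome and mitochondrial gene transcription in many tumours, had 27.8 and 26.8 FPKM in NCI-H929 CTBP2 cells, against 115 and 92.9 FPKM in NCI-H929 EV cells. In MM.1S it had 134 and 139 FPKM with CTBP2, against 190 and 188 FPKM in EV. MYC libraries did not overlap within either line; it fell by 1.88 in NCI-H929 (SE 0.16, adjusted p = 0.000839), had a log2 fold change of -0.47 in MM.1S (adjusted p = 0.118), and the difference of -1.41 passed (adjusted p = 0.0362). In the 6 libraries that match their labels MYC fell by 1.85 in NCI-H929 (adjusted p = 0.00492), had -0.49 in MM.1S (adjusted p = 0.171), and the difference of -1.36 no longer passed (adjusted p = 0.171). With the labels as written MYC had -0.71 in NCI-H929, where its vectors overlapped, and -1.63 in MM.1S, and the difference was 0.92; none passed (adjusted p = 0.681, 0.375 and 0.698). PPRC1, a coactivator related to PGC-1, fell by 0.80 over both lines and SP1 rose by 0.51; with the labels as written no regulator was called (adjusted p = 0.0927 for PPRC1 and 0.0902 for SP1), and in the 6 libraries that match their labels 2 were lower and 1 higher. YY1 (-0.04), NRF1 (-0.15), GABPA (-0.003) and GABPB1 (-0.02), whose products are known to act at promoters of mitochondrial protein genes, did not pass. The part of MYC in the members' fall was not tested. Members with the YY1 letters had a median log2 fold change of -0.57 over both lines, those with the ETS letters -0.47 and the 28 with neither -0.55; over all genes kept with the YY1 or the ETS letters it was -0.08 and -0.07. Of the 44 members with a promoter entry that were called lower, 15 had the YY1 letters and 17 the ETS letters, and of the 24 others 5 and 11 did.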

How the data were processed

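RNA of 8 libraries was prepared with a TruSeq RNA kit, per the labels' protocols. The values are FPKM as deposited by the authors; that unit is given by the table's own name and fits its values. STAR 2.6.0b-1, HTSeq 0.9.1, FastQC 0.11.7, Trimmomatic 0.36.5, DESeq2 2.11.40.2 and the build GRCh37 stand, in no order, in the submitters' processing notes. The tool that made the FPKM is not given in the sources used here. Depth, inferred from the step size of low FPKM, was 15900000 to 21200000 fragments per library; 50.6% to 58.9% of low values then came within 0.1 of whole fragments, where chance gives 20%, so the estimate was not used as counts; members then had 191 or more fragments in every library.

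Genes with 1 FPKM or more in 2 libraries were tested on log2(FPKM + 1) with limma 3.58.1 in R 4.3.3 (variance trend); the added 1 FPKM makes fold changes of low genes too small. Both lines were fitted with line and vector, and single lines, their difference and the EV comparison with 1 mean per group over 8 libraries. Lines were read from CCND2 or FGFR3 above 10 FPKM. A gene is called at a Benjamini-Hochberg adjusted p under 0.05 over all genes tested. The labels call the samples biological duplicates and do not say how cultures were split, so p-values measure the spread between these samples. Promoters came from RefSeq and were matched by gene ID. Python 3.11 and matplotlib drew the figures.

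Members, gene lists and tests were chosen with earlier results of these data known. Named members are, per comparison, all called if 30 or fewer, otherwise the 15 with the smallest p in each direction; the 5 not called with the largest log2 fold change; the 5 highest and 5 lowest in EV; and MRPL12, MRPS12, MRPL3, MRPL44, MRPS16, MRPS22 and MRPS34. Of each other list up to 4 called genes by p are named; CHCHD1, YBEY and the regulators named without a call, and members named for their promoter, and MRPS14, MRPL14 and MRPS9, were singled out after their values were seen. Alternatives were the line labels as written, the 6 matching libraries, other pseudocounts, filters and scalings, no variance trend, a replicate block and leaving out each library.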

Additional observations from a re-analysis of the deposited data

Results flagged for a closer look

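In 2 members the effect of CTBP2 had opposite directions in the lines, with both CTBP2 libraries on one side of both EV libraries in each line. Such separation is common with 2 libraries per group. Of all genes, 31.6% were apart above in MM.1S and 31% apart below in NCI-H929. The share of genes with both was not counted. MRPL14 had 49.8 and 37.2 FPKM in NCI-H929 CTBP2 cells, against 82.9 and 71.0 FPKM in NCI-H929 EV cells, and 123 and 148 FPKM in MM.1S CTBP2 cells, against 76.8 and 116 FPKM in MM.1S EV cells. Its effect in NCI-H929 minus that in MM.1S was -1.32 on the log2 scale (SE 0.34, adjusted p = 0.118 by limma), which did not pass. MRPS9, a small subunit protein with a bacterial counterpart, had 21.7 and 15.5 FPKM in NCI-H929 CTBP2 cells, against 27.1 and 22.7 FPKM in NCI-H929 EV cells, and 21.3 and 23.2 FPKM in MM.1S CTBP2 cells, against 17.8 and 21.1 FPKM in MM.1S EV cells. Its difference was -0.60 (SE 0.27, adjusted p = 0.347), which did not pass either. Each statement rests on 2 libraries per group, 1 of the CTBP2 libraries of each line being labelled with the other line.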

How the results depend on the processing

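No alternative called a member higher with CTBP2, and the members' median log2 fold change stayed below 0 over both lines and within each line in all of them. With line labels as given, 3 members were lower over both lines, 0 in MM.1S and 0 in NCI-H929. In EV 0 were then higher and 0 lower between lines. The medians over both lines (-0.55) and in EV (0.20) stayed the same, and all EV libraries match their labels. The fit shares 1 spread over 8 libraries, and these labels bring the difference between lines into it. Under them the difference in effect between lines turned round, with a median of 0.083. It was 0.64 for MRPL14, 0.48 for MRPL12, 0.020 for MRPS12, 0.17 for MRPS16 and 0.62 for MRPS34. In the 6 libraries that match their labels, 5 were lower in MM.1S and 14 in NCI-H929, and the median difference was -0.079, with MRPS34 at 0.23. Equal totals without immunoglobulin genes and CTBP2 gave 13 lower over both lines (median -0.26) and 13 in NCI-H929 (median -0.29). Of 12698 genes tested 869 and 634 were lower, and the medians of all genes were 0.27 and 0.36. MRPL44 was at 0.0045 in MM.1S. In EV 10 members were higher and 11 lower, against 1957 and 4194 genes. The median there was -0.0043, with MRPL12 at -0.11 and MRPS16 at -0.15. Leaving out small RNA genes too gave 17 over both lines (median -0.30) and 15 in NCI-H929 (median -0.35). Of 12674 genes tested 921 and 636 were lower, and the medians of all genes were 0.24 and 0.31. In EV 9 members were then higher and 16 lower, against 1584 and 4396 genes. The median there was -0.11, with MRPL12 at -0.22 and MRPS16 at -0.26. Quantile normalization gave 23 lower over both lines, 0 in MM.1S and 26 in NCI-H929 (median -0.45), against 1988, 188 and 1824 of 12583 genes. It put MRPL12 at -0.028 in EV, and a median-of-ratios rescale put MRPS34 at 0.062 in EV. No filter gave 30 over both lines and 0 in MM.1S, against 1542 and 79 of 21810 genes. Causes of the changes under other scalings and filters were not tested.

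Leaving out 1 library gave 13 to 57 lower over both lines, 4 to 59 in NCI-H929 and 0 to 1 in MM.1S, a median difference between lines of -0.53 to -0.18, with MRPS34 from -0.68 to 0.034, and in EV 6 to 20 higher and 2 to 8 lower, with MRPL12 from -0.19 to 0.39, MRPS16 from -0.090 to 0.21 and MRPS34 from -0.31 to 0.17. With a replicate block, a single term shared by both lines, 37 were lower over both lines, 35 in NCI-H929 and 0 in MM.1S. Of 12583 genes tested 1808, 1549 and 113 were lower. In EV 15 members were then higher and 5 lower, against 2678 and 3462 genes. Same-numbered libraries deviated together between vectors within a line (r = 0.44 in MM.1S and 0.45 in NCI-H929, by line read) but not across lines (-0.28 to 0.027). A pairing within each line was not fitted, so these counts do not account for it. No label ties the numbers to a shared culture. Over the named members of each comparison and all alternatives, 1748 values kept their sign and call. Of the rest 45 passed only under an alternative, 239 no longer passed and 20 changed sign. At the estimated depth every member had 191 or more fragments per library.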
